A study of Homo sapiens with 12 samples.

Results

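The genes described here are 42 classical markers of the epithelial and the mesenchymal cell state, 22 epithelial and 20 mesenchymal, out of 20046 genes named on the arrays. They were taken by gene symbol from a marker list and not by a cutoff on their measured values. Earlier results of these data were known when that list was chosen. All 42 had a probe, with 70 probes in all among the 47323 on each array. The epithelial genes comprised cadherins and EPCAM, keratins, tight junction and desmosome proteins, epithelial regulators, and apical proteins. The mesenchymal genes comprised transcription factors of the transition, N-cadherin and vimentin, matrix proteins, contractile proteins and surface receptors. Each array's signal for a probe was a linear brightness, and its detection p-value compared that brightness with the negative control probes of the array.

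The arrays measured total RNA of PANC-1, an established cell line of human pancreatic ductal carcinoma, as biotin-labelled cRNA on Illumina beads. The 6 knockdown samples were PANC-1 with an integrated lentiviral pLKO.1 vector carrying a short hairpin RNA against human TIMP1, an inhibitor of matrix metalloproteinases. The 6 control samples, called WildType in the titles, were PANC-1 with an integrated pLKO.1 puro vector without a hairpin, so both groups carried a vector, and both were grown with fetal calf serum and puromycin. The number of hairpins and of clones was not given in the sources used here. No label said that the replicates were separate cultures, so the p-values describe the spread among these samples only, and that spread may be technical.

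Epithelial cells hold together through E-cadherin, desmosomes and tight junctions, and carry a keratin skeleton, while mesenchymal cells rely on vimentin, contractile actin bundles and a fibronectin-rich matrix. In an epithelial-mesenchymal transition, the factors ZEB1, ZEB2, SNAI1, SNAI2 and TWIST1 lower epithelial genes, in part by binding E-box sequences in their promoters. GRHL2, ESRP1, ESRP2 and the microRNAs of the miR-200 family act on the epithelial side, and the miR-200 family and the ZEB factors repress each other.

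TIMP1 itself had a lowest, median and highest log2 intensity of 13.49, 13.56 and 13.63 on the knockdown arrays, against 13.64, 13.75 and 13.86 on the control arrays. The groups did not overlap, but the log2 fold change of -0.19 ± 0.04 (SE, n = 6 each, knockdown minus control throughout), a linear difference of 12.5%, had an adjusted p of 0.101 in limma over all detected probes. The adjusted p was under 0.05 only with a stricter probe filter (adjusted p = 0.0449) and with an intensity trend and a robust fit (adjusted p = 0.0249). The number of probes detected ranged from 15898 to 17680 on the knockdown arrays and from 15681 to 16565 on the control arrays, and knockdown replicates 2 and 6 had the most of all 12.

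A probe was called detected where 6 or more of the 12 arrays gave it a detection p below 0.05, and a gene when any of its probes was. By this rule 23 of the 42 genes were detected (54.8%), beside 48.8% of all named genes. The detected genes were 13 of 22 epithelial ones (59.1%) and 10 of 20 mesenchymal ones. Of the 70 probes, 34 were detected on all 12 arrays, 2 on 6 to 11, 5 on fewer than 6, and 29 on none. The 29 probes detected nowhere had signals between 111 and 239, and their lowest detection p over the arrays was at least 0.0740. Such a probe says only that its signal was not above the negative controls, and a probe that binds its transcript poorly gives the same reading.

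Both classical cadherins of the switch were on the undetected side. CDH1, the E-cadherin of adherens junctions, had signals of 143 to 156 on the knockdown arrays and 132 to 153 on the control arrays, with detection p-values from 0.426 to 0.809. CDH2, the N-cadherin that often replaces it in mesenchymal cells, had detection p-values from 0.292 to 0.739. CDH3, or P-cadherin, had detection p-values from 0.547 to 0.948. EPCAM, a homotypic adhesion molecule of epithelia, was in contrast detected by all 3 of its probes on all 12 arrays.

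All 4 keratins were detected on every array: KRT8 and KRT18, the filament pair of simple epithelia, and KRT7 and KRT19, the keratins of ducts. Both desmosome genes were detected as well, DSP by 1 of its 3 probes and JUP, the plakoglobin of the plaque, by all 3. Of the 6 tight junction genes, 3 were detected: CLDN1, the scaffold gene TJP1, and CLDN4, which fell below the detection threshold on 1 knockdown array. The claudin genes CLDN3 and CLDN7 and the occludin gene OCLN were not: CLDN3 passed on 1 knockdown and 1 control array, and CLDN7 and OCLN on none. Of the epithelial regulators, ELF3, an ETS-family transcription factor, was detected on all 12 arrays. GRHL2, ESRP1 and ESRP2, a transcription factor and a pair of splicing regulators, were detected on no array, with detection p-values of at least 0.629, 0.229 and 0.370. At the apical surface, the mucin MUC1 was detected by 1 of its 3 probes and MAL2, a raft protein of apical transport, by its only probe. RAB25, a GTPase of apical recycling, was detected on no array.

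On the mesenchymal side, VIM was near the top of the scale, with signals between 11187 and 14224 on its brighter probe. Of the 6 transcription factors, ZEB1 (detection p 0.186 to 0.494), SNAI1 (at least 0.378), TWIST1 (at least 0.514) and FOXC2 (at least 0.0883 on both probes) were detected on no array. SNAI2 was the exception and passed the rule on 1 of its 2 probes, with detection on 4 knockdown and 6 control arrays. The detection p of that probe was 0.0260 to 0.0948. The second SNAI2 probe was detected on no array (detection p 0.0805 to 0.323). One ZEB2 probe was detected on 4 of the 6 knockdown arrays and on none of the 6 control arrays, and its other probe was detected nowhere. The signals of that ZEB2 probe were 217.7 to 261.0 on the knockdown arrays and 219.1 to 247.2 on the control arrays, so the groups overlapped. No fold could be bounded, because its knockdown mean (log2 6.53) lay below the detection limit taken for the control arrays (6.62). Without a detection filter its log2 fold change was 0.17, with an adjusted p of 0.557 in limma.

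Among the matrix genes, TNC (tenascin-C) and LOX (the collagen cross-linker lysyl oxidase) were detected. The fibronectin gene FN1 was not detected on any array by any of its 3 probes, nor was SPARC, a matrix-binding glycoprotein. Among the contractile genes, CALD1 (caldesmon), TPM2 (beta-tropomyosin) and TGFB1I1 (the focal adhesion protein Hic-5) were detected. TAGLN, the actin-binding protein transgelin, was detected on no array by its 3 probes, and ACTA2, smooth muscle actin, on 1 knockdown array. All 3 surface receptors were detected: AXL, a receptor tyrosine kinase, NT5E, the ecto-nucleotidase CD73, and CD44, the hyaluronan receptor. One of the 3 CD44 probes, annotated to another transcript than the bright ones, was detected on no array, with signals between 181 and 225.

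**Figure D1:**
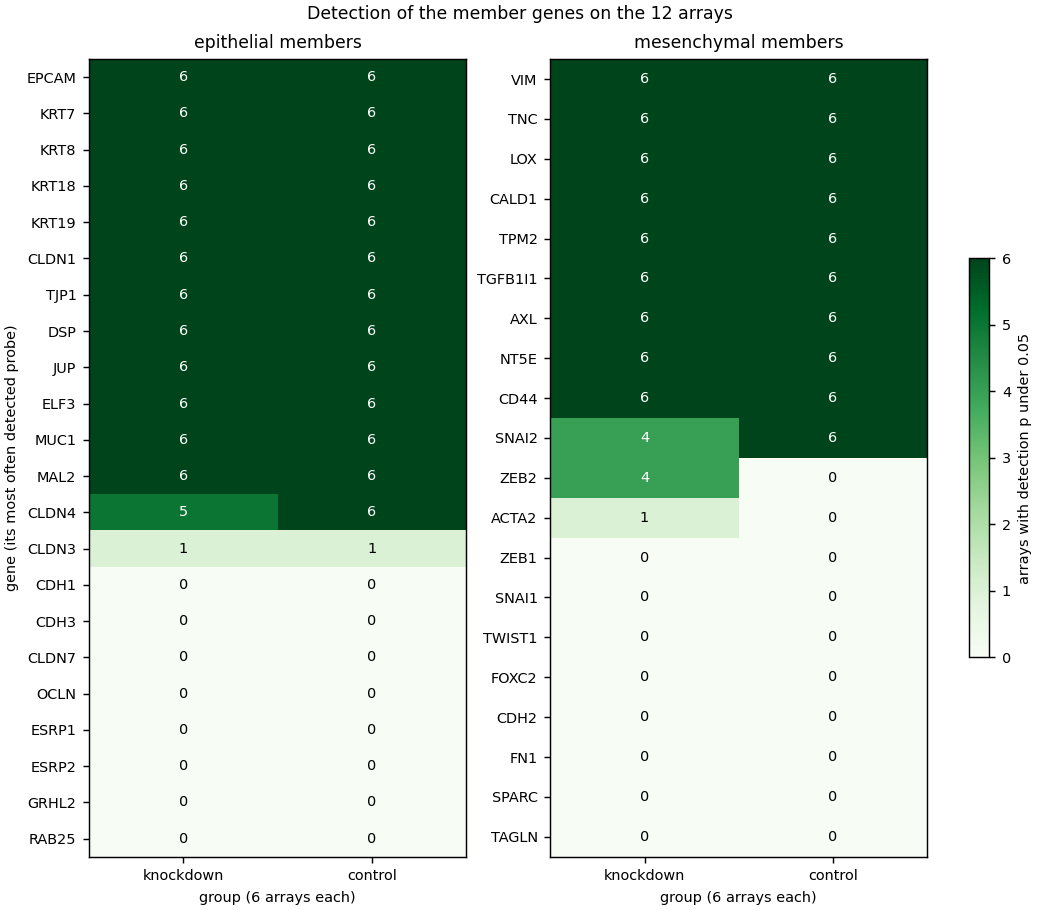
Number of arrays (of 6 in each group) on which each of the 42 genes was detected by its most often detected probe, as shade and number, with knockdown left of control and the most detected genes at the top. CDH1, CDH2, CDH3, GRHL2, ESRP1, ESRP2, ZEB1, SNAI1, TWIST1 and FOXC2 are at 0 in both groups, while the keratins, desmosome genes and surface receptors are full in both groups.

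The miR-200 family was looked up because it opposes the ZEB factors, and its mature sequences (RefSeq, build GRCh38.p14) are shown with the seed, bases 2 to 8, in capitals.
hsa-miR-200a-3p: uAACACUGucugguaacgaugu
hsa-miR-141-3p: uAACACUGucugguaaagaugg
hsa-miR-200b-3p: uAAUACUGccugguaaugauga
hsa-miR-200c-3p: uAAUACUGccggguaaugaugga
hsa-miR-429: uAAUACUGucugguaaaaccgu
The family has 2 seeds, AACACUG in miR-200a-3p and miR-141-3p and AAUACUG in the other members. The arrays carried 1 probe for each of the 5 precursor genes, and none was detected on any array (signals 127 to 226, lowest detection p 0.112). These probes read precursor transcripts and say nothing about the level of the mature microRNAs.

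Promoters were searched for the E-box CAGGTG, read as CACCTG on the other strand, which ZEB and SNAI factors bind. RefSeq windows (build GRCh38.p14) from 250 bases before to 50 after the start were found for 27 of the 42 genes. The E-box was in a window of 9 of 12 epithelial genes and 3 of 15 mesenchymal genes, beside 24.1% of all genes in the table. Counted per window, it was in 57.9% of the epithelial ones, 15.6% of the mesenchymal ones and 20.6% of all 35116. The epithelial genes with a window that were not detected, CLDN3, CLDN7, OCLN and RAB25, all held it (4 of 4), as did 5 of the 8 that were detected. The other undetected epithelial genes, CDH1, CDH3, ESRP1, ESRP2 and GRHL2, had no window here. The median GC content was 69.8% for the windows of undetected epithelial genes and 65.7% for those of detected ones, against 58.7% for all windows. Its part in these counts was not tested. These matches are descriptions of letters and not of bound sites.

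CLDN7 had 2 windows, of which that at chr17:7263164-7263463 held no E-box. The other (chr17:7262429-7262728, minus strand) held 5, the most among the windows of the 27 genes searched, and a number reached by 0.0940% of all windows. They begin 174, 135, 20 and 9 bases before the start and 5 bases after it. RAB25 (chr1:156060910-156061209, plus strand) held 2. CLDN1 (chr3:190322397-190322696, minus strand), a detected claudin, held none and is shown beside them. Each is printed 5′ to 3′ on the strand of its gene, with the E-boxes in capitals.
CLDN7: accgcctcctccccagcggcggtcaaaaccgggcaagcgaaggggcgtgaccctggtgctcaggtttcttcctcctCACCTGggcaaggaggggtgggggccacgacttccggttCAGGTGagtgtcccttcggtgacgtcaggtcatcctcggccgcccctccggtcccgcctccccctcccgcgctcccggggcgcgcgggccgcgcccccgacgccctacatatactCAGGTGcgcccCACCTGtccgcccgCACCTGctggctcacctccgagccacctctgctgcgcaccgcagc
RAB25: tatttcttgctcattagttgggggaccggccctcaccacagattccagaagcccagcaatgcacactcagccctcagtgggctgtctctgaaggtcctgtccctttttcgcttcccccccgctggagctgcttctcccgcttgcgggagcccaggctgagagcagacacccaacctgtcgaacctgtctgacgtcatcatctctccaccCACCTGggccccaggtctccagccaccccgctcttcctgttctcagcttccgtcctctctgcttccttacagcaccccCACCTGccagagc
CLDN1: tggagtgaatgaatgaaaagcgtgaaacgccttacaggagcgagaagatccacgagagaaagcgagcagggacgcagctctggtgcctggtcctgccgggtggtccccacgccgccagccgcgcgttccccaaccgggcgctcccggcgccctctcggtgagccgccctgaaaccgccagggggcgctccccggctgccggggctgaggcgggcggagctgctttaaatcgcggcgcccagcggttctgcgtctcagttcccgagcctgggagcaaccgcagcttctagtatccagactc
Of these 3 genes, CLDN7 and RAB25 were detected on none of the 12 arrays, and CLDN1 was detected on all of them. They do not stand for the rest. Among the other detected epithelial genes, DSP, JUP and MUC1 had a window with 2 E-boxes, as many as RAB25. TJP1 and ELF3 had a window with 1, and KRT8 and CLDN4 had none. A link between E-boxes and detection was not tested.

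No epithelial or mesenchymal gene differed between knockdown and control past an adjusted p of 0.05: 0 of the 36 detected probes were called by limma, against 0.303% of all 16495 detected probes. At an unadjusted p under 0.05, 10 of the 36 probes were reached, 4 higher and 6 lower in knockdown, against 14.5% of all detected probes. These 10 came from 8 genes, EPCAM with 2 probes, MAL2, CLDN1, TJP1 and CD44 among the lower ones, DSP, AXL and TNC, with 2 probes, among the higher ones. The knockdown and control arrays did not overlap for 1 of the 36 probes, that of MAL2, against 1.56% of all detected probes. The 36 probes passed a filter that the other 34 did not, so these counts do not cover the 19 undetected genes.

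The fold changes of the genes, each on its brightest detected probe, were small in both classes. Of 13 epithelial genes, 5 had a log2 fold change above 0 and 8 below, with a median of -0.05 and a range from -0.60 to 0.23. Of 10 mesenchymal genes, 5 were above 0 and 5 below, with a median of 0.01 and a range from -0.18 to 0.19. The median over all detected probes was 0.01. When the arrays were scaled to a common median instead of quantile normalised, the medians were 0.08 for the epithelial genes, 0.10 for the mesenchymal genes and 0.12 for all detected probes, so on that scale the medians of both classes lay below that of all probes. This scaling thus raised the all-probe median but did not move each gene alike. The log2 fold change of SNAI2 went from -0.18 to -0.15, and that of KRT7 from 0.11 to 0.25. Values under this scaling are given below relative to that median of 0.12, which does not undo unequal moves.

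**Figure D2:**
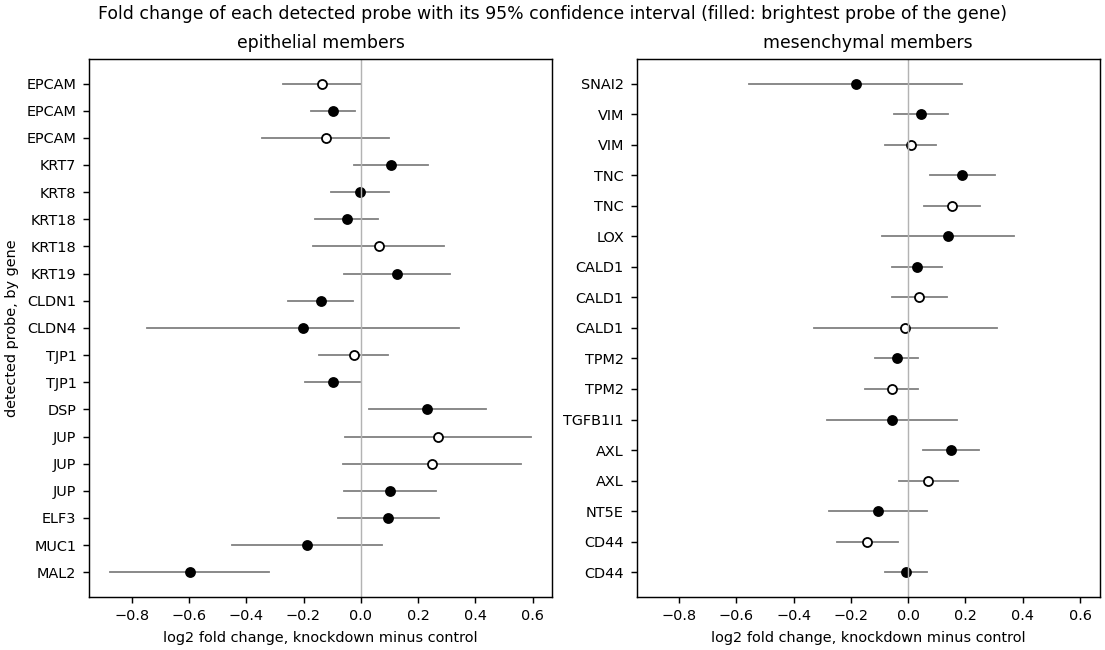
Log2 fold change (knockdown minus control) of each detected probe of the 42 genes, with its 95% confidence interval as a line, epithelial genes left and mesenchymal genes right, and filled for the brightest probe of a gene. MAL2, at -0.60, is the probe farthest from 0, and no probe passed an adjusted p of 0.05.

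MAL2 was farthest from 0 of all 36 probes. Its log2 intensity had a lowest, median and highest value of 6.60, 7.06 and 7.42 on the knockdown arrays, against 7.44, 7.61 and 7.90 on the control arrays. Every knockdown array thus lay below every control array, with the highest knockdown array, replicate 1, just under the lowest control array, replicate 6. The log2 fold change was -0.60 ± 0.13 (SE, 95% interval -0.88 to -0.32, n = 6 each), with an adjusted p of 0.0833 in limma. It passed the threshold only when knockdown replicate 1 was left out, with a log2 fold change of -0.67 and an adjusted p of 0.0246, and the adjusted p ranged from 0.0246 to 0.566 over 23 alternatives. Without knockdown replicates 2 and 6, which had the lowest values, the log2 fold change was -0.45, with an adjusted p of 0.242 in limma. Without background correction the log2 fold change was -0.31, so the size of this dim probe's difference depended on how the background was treated.

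The adhesion gene EPCAM had 11.63, 11.72 and 11.80 on the knockdown arrays (lowest, median and highest log2 intensity), against 11.79, 11.82 and 11.86 on the control arrays. The groups touched but barely overlapped, and the log2 fold change was -0.10 ± 0.04 (SE), with an adjusted p of 0.260. Its other probes had log2 fold changes of -0.14 and -0.12. With median scaling its log2 fold change was 0.04, which was -0.08 relative to the all-probe median.

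Of the tight junction genes, CLDN1 had 11.03, 11.17 and 11.31 on the knockdown arrays, against 11.24, 11.29 and 11.44 on the control arrays. The groups overlapped, with 4 of the 6 knockdown arrays below all control arrays, and the log2 fold change was -0.14 ± 0.05 (SE), with an adjusted p of 0.261. TJP1, the scaffold protein ZO-1, had 10.26, 10.36 and 10.50 on the knockdown arrays, against 10.40, 10.47 and 10.57 on the control arrays. The groups overlapped here too, with 5 of the 6 knockdown arrays below all control arrays. The log2 fold change was -0.10 ± 0.04 (SE), with an adjusted p of 0.336, and it was -0.03 on the second probe. With median scaling, relative to the all-probe median, the values were -0.12 for CLDN1 and -0.08 for TJP1. Without knockdown replicates 2 and 6 the log2 fold change of CLDN1 was -0.09. CLDN4, a dim probe, ranged from 6.41 to 7.70 on the knockdown arrays and from 6.74 to 8.16 on the control arrays. Its log2 fold change of -0.20 ± 0.25 (SE) was smaller than its own error.

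The desmosome genes lay on the other side of 0. DSP, the desmoplakin that ties keratin filaments to the desmosome, had 7.88, 8.04 and 8.35 on the knockdown arrays, against 7.69, 7.83 and 8.11 on the control arrays. The groups overlapped, the log2 fold change was 0.23 ± 0.09 (SE) and the adjusted p was 0.293. Without knockdown replicates 2 and 6 it was 0.12. JUP had log2 fold changes of 0.10, 0.25 and 0.27 on its 3 probes, of which the first, from the brightest probe, had an adjusted p of 0.552.

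Among the keratins, KRT7 had 10.99, 11.13 and 11.35 on the knockdown arrays, against 10.97, 11.02 and 11.21 on the control arrays, and the groups overlapped. Its log2 fold change was 0.11 ± 0.06 (SE), with an adjusted p of 0.436, and 0.07 without knockdown replicate 2. Over all omissions of 1 array it ranged from 0.07 to 0.14. KRT19 had 8.25, 8.52 and 8.76 on the knockdown arrays, against 8.25, 8.40 and 8.58 on the control arrays. Its log2 fold change of 0.13 ± 0.09 (SE) had an adjusted p of 0.518, and was 0.08 without knockdown replicate 2. With 1 array left out it ranged from 0.08 to 0.18. KRT8 had a log2 fold change of -0.00, with a 95% interval from -0.10 to 0.10, and KRT18 had -0.05 on its brighter and 0.06 on its dimmer probe.

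ELF3 had 8.99, 9.16 and 9.47 on the knockdown arrays, against 8.97, 9.14 and 9.20 on the control arrays. The medians nearly coincided, and 3 knockdown arrays stood above all control arrays: replicates 2 and 6, the highest, and replicate 3 by a small margin (9.21). The log2 fold change was 0.10 ± 0.08 (SE, adjusted p = 0.611), and -0.02 without knockdown replicates 2 and 6. MUC1 had 7.44, 7.54 and 7.86 on the knockdown arrays, against 7.47, 7.79 and 8.16 on the control arrays. Its groups overlapped, and the log2 fold change was -0.19 ± 0.12 (SE, adjusted p = 0.489). It was -0.12 without control replicate 1 and -0.30 without knockdown replicates 2 and 6.

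**Figure D3:**
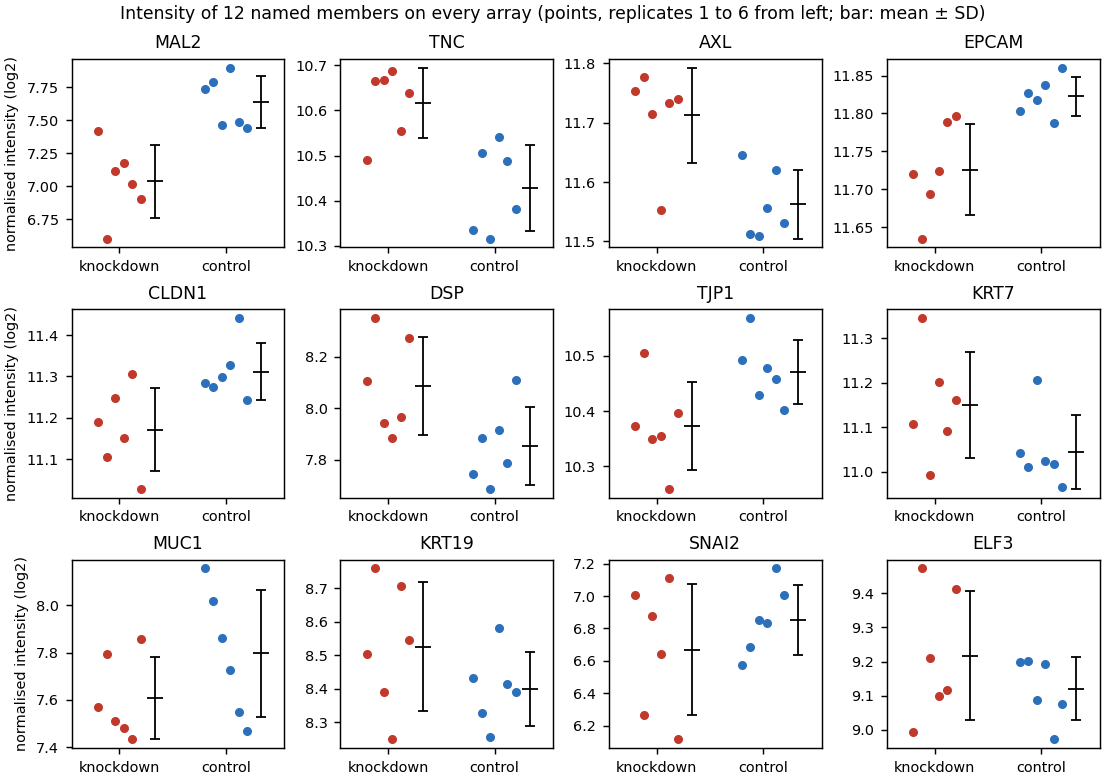
Log2 intensity on each of the 12 arrays for the named genes, knockdown left of control, 1 point per array in the order of the replicate numbers, with the mean ± SD of each group beside it. Scales differ between panels and do not start at 0. MAL2 is the gene whose 6 knockdown points, at most 7.42, all lie below the control points, at least 7.44.

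Of the mesenchymal genes, TNC, a matrix glycoprotein of wounds and tumour stroma, had 10.49, 10.65 and 10.69 on the knockdown arrays, against 10.32, 10.43 and 10.54 on the control arrays. All but 1 of the knockdown arrays lay above every control array. The log2 fold change was 0.19 ± 0.05 (SE, adjusted p = 0.170), and 0.15 ± 0.04 on the second probe (adjusted p = 0.190). AXL had 11.55, 11.74 and 11.78 on the knockdown arrays, against 11.51, 11.54 and 11.65 on the control arrays. Only knockdown replicate 4 lay within the control range, and the log2 fold change was 0.15 ± 0.04 (SE, adjusted p = 0.194), with 0.07 on the second probe.

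CD44 differed in the size of its values between probes. The brighter probe had a log2 fold change of -0.01, with a 95% interval from -0.08 to 0.06. The dimmer detected probe had 11.40, 11.50 and 11.64 on the knockdown arrays, against 11.51, 11.67 and 11.68 on the control arrays, which gave -0.14 ± 0.05 for the log2 fold change (SE), and the adjusted p was 0.238. For NT5E, on 1 probe, the log2 fold change was -0.10 ± 0.08 (SE), and the adjusted p was 0.562.

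SNAI2 was the 1 detected transition factor, by 1 of its 2 probes. That probe had 6.12, 6.76 and 7.11 on the knockdown arrays, against 6.57, 6.84 and 7.17 on the control arrays. Its 2 lowest values were those of knockdown replicates 6 and 2, the arrays with the most detected probes. The log2 fold change was -0.18 ± 0.17 (SE, adjusted p = 0.647), and it was 0.06 without those 2 arrays. Leaving out 1 array moved it to -0.10 (knockdown replicate 2), -0.07 (knockdown replicate 6) or -0.12 (control replicate 5). Other omissions of 1 array enlarged it, and the full range was -0.27 to -0.07.

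VIM, the intermediate filament of mesenchymal cells, had 13.56, 13.67 and 13.69 on the knockdown arrays, against 13.47, 13.62 and 13.69 on the control arrays. The groups overlapped, and the log2 fold change was 0.04, with a 95% interval from -0.05 to 0.14. The remaining mesenchymal genes had log2 fold changes of 0.14 ± 0.11 (SE) for LOX, 0.03 for CALD1, -0.04 for TPM2 and -0.06 for TGFB1I1, none with an adjusted p under 0.571.

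Averaged over its 13 detected genes, each set relative to its mean over the 12 arrays, the epithelial class stood at -0.03 ± 0.05 on the knockdown arrays and 0.03 ± 0.04 on the control arrays (log2, SD, n = 6 each). The mesenchymal class, over 10 genes, stood at 0.01 ± 0.03 on the knockdown arrays and -0.01 ± 0.03 on the control arrays. The lowest epithelial value, -0.12, was that of knockdown replicate 5, and the next lowest, -0.04, that of knockdown replicate 3. Most of the epithelial difference came from MAL2: the knockdown minus control difference was -0.05 with it and -0.01 without it, a comparison added after the values were seen. In both classes the group means lay within the spread of the arrays.

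**Figure D4:**
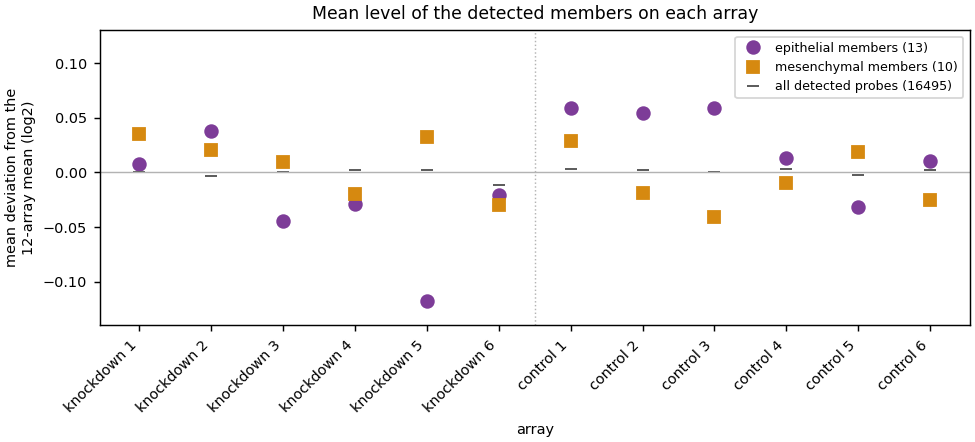
Mean deviation (log2) of the detected epithelial (circles) and mesenchymal (squares) genes from their own mean over 12 arrays, for each array, knockdown left of control, with dashes for all detected probes. The knockdown arrays run from -0.12 to 0.04 for the epithelial genes and from -0.03 to 0.03 for the mesenchymal genes, and overlap the control arrays in both classes.

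Knockdown replicates 2 and 6 stood at the ends of several of these genes. They were the 2 highest of the 12 arrays for DSP, JUP, ELF3 and LOX, and the 2 lowest for CLDN1, MAL2, SNAI2 and NT5E. That made 8 of the 23 detected genes (34.8%), and the same held for 18.8% of all detected probes. The part that array quality has in these values was not tested.

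Genes of the same systems outside the 42 were also read from 3 wider lists. Of 29 catenin, desmosome and tight junction genes, 25 had a named probe and 13 were detected, and none passed the adjusted threshold, with 9 above 0 and 4 below and a median log2 fold change of 0.04. CGN, the tight junction protein cingulin, had 6.51, 6.78 and 7.38 on the knockdown arrays, against 6.40, 6.43 and 6.65 on the control arrays. It was detected on 5 knockdown arrays and 1 control array, so it passed the filter mainly through the group where it was higher, and no fold is given. The groups overlapped. LSR, a protein of tricellular junctions, had -0.46 ± 0.23 (SE, adjusted p = 0.375), the desmosomal cadherin DSG2 had -0.13 and CLDN23 had 0.17.

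Of 28 other epithelial genes and regulators, 24 had a named probe and 14 were detected. One of the 14, SPINT2, passed the threshold and fell, beside 0.303% of all detected probes. The wider lists were chosen with earlier results of these data known. Of the 14, 5 lay above 0 and 9 below, with a median of -0.01. SPINT2, a membrane-bound inhibitor of serine proteases such as matriptase, had 10.76, 10.81 and 10.93 on the knockdown arrays, against 10.99, 11.10 and 11.21 on the control arrays. All knockdown arrays lay below all control arrays, and the log2 fold change was -0.26 ± 0.05 (SE, adjusted p = 0.0471). That call lay at the edge: leaving out any 1 of 10 of the 12 arrays ended it, with adjusted p-values up to 0.109, and it held without knockdown replicate 1 or control replicate 6. It was also lost with median scaling (adjusted p = 0.427), where the log2 fold change was -0.12, or -0.24 relative to the all-probe median, and with the number of detected probes as a covariate (adjusted p = 0.456), and in 16 of 24 alternatives in all.

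GRHL3, a paralogue of GRHL2, had 6.39, 6.55 and 6.77 on the knockdown arrays, against 6.77, 6.95 and 7.06 on the control arrays. The groups overlapped by 1 array of each, and the log2 fold change was -0.36 ± 0.07 (SE, adjusted p = 0.0554). Over 23 alternatives it ranged from -0.44 to -0.17, the smaller without background correction, and the adjusted p from 0.0223 to 0.366, under 0.05 in 3 of them: with cyclic loess, without knockdown replicate 1 and without control replicate 6. FOXA1 and KLF4, transcription factors of endodermal and other epithelia, had 0.14 and 0.15, both with overlapping groups. OVOL1, OVOL2, ST14, ERBB3, ITGB4 and ITGB6 were among the 10 genes of this list that were not detected.

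Of 40 other mesenchymal and transition genes, 38 had a named probe and 23 were detected. None passed the threshold, with 9 above 0 and 14 below and a median of -0.01. PRRX1, a homeobox factor of mesenchyme, had 7.10, 7.62 and 7.88 on the knockdown arrays, against 6.37, 6.81 and 7.19 on the control arrays. It was detected on 6 knockdown and 4 control arrays, and only knockdown replicate 1 and control replicate 6 overlapped. The log2 fold change was 0.79 ± 0.15 (SE) with an adjusted p of 0.0554, and 0.40 with an adjusted p of 0.0475 without background correction. Over 23 alternatives its log2 fold change stayed between 0.40 and 0.88 and its adjusted p between 0.0153 and 0.475, under 0.05 in 6 of them. Among these 6, omitting background correction and using the authors' processed values are the same fit, so they count as 1 result. TGFBI, a matrix protein induced by TGF-beta, had 0.17 (adjusted p = 0.214), the integrin gene ITGA5 0.22 (adjusted p = 0.231) and SOX4 -0.13 (adjusted p = 0.248). Among those not detected were TWIST2, SNAI3, COL1A1, COL5A1, CDH11, MYL9 and CNN1.

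Markers of duct and of other cells were read beside the label of a duct-derived line. All 5 duct markers with a named probe were detected (KRT7, KRT19, SOX9, CFTR and MUC1), as were 1 of 10 fibroblast and stellate cell markers (PDGFRA), 2 of 6 leukocyte markers (CD14 and CD68), 1 of 5 endothelial markers (PECAM1) and 2 of 8 acinar and islet markers (PRSS1 and CELA3A). The fibroblast collagen genes COL1A1, COL1A2 and COL3A1 and the leukocyte gene PTPRC were not detected, and no marker of these lists passed the adjusted threshold between knockdown and control.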

How the data were processed

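Groups and replicate numbers came from the sample titles. Per the file headers, the deposited non-normalised table gave each probe's signal intensity (linear) and detection p-value on each array. The authors' processed values equalled a quantile normalisation of that intensity (median absolute difference 3.33e-08, median 188.8 in every column). As an alternative, they equal omitting background correction. Limma is named in the submitters' processing notes, with no role.

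Intensities were corrected and normalised with neqc of limma 3.58.1 in R 4.3.3 (offset 16, negative controls inferred from detection p, quantile normalisation, log2). The offset shrinks fold changes of dim probes. Probes with detection p under 0.05 on at least 6 of 12 arrays were kept (16495). Platform symbols gave 1 gene for 30113 probes, several for 8 and none for 17202. A gene was represented by its brightest detected probe. lmFit and eBayes tested the group term over all 12 arrays, two-sided, with Benjamini-Hochberg adjustment over all detected probes and a threshold of 0.05. The fit was tested on simulated data with known changes. It recovered 11 of 40 changes of 0.2 (log2), 26 of 40 of 0.4 and 39 of 40 of 1, with 6 false calls. Changes of about 0.2, the size of most fold changes here, could thus be missed.

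The members, the wider lists and the markers were chosen with earlier results of these data known. The rule named TIMP1, the cadherins and regulators, the 10 genes with the smallest p and up to 4 genes in each wider list; JUP, CLDN4, VIM and other genes were described beyond it after their values were seen. The alternatives concerned background, normalisation, filter, replicate block, variance model, array weights, a covariate and left-out arrays. No genome build was stated for the array in the sources used here. The number of arrays limits the precision.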

Additional observations from a re-analysis of the deposited data

Results flagged for a closer look

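In 3 of 48 groups of 6 arrays, 1 array stood apart from the other 5 by a large share of the range, and chance gives this in about 1 group in 20. KRT7 on control replicate 3 was at a log2 intensity of 11.21, while the other control arrays lay between 10.97 and 11.04. TGFB1I1 on control replicate 1 was at 8.97, against 8.51 to 8.66 on the others. AXL on knockdown replicate 4 was at 11.55, against 11.72 to 11.78 on the other knockdown arrays.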

How the results depend on the processing

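The number of member probes and of member genes called was 0 under the main setting and under the alternatives, except that leaving out 1 array gave 0 to 1 (MAL2, without knockdown replicate 1). With median scaling the median log2 fold change was 0.0824 for the epithelial and 0.102 for the mesenchymal genes, while that of all detected probes was 0.12. The epithelial median was -0.00336 without a detection filter, -0.00225 with a filter of p under 0.01 on all 12 arrays and -0.00225 with a gene's detected probes averaged, against -0.05 in the main setting. Median scaling raised the median of all detected probes but moved single genes by unequal amounts. Under it EPCAM (0.0374) and TJP1 (0.0356) lay above 0 but at -0.08 relative to that median. The sign of SNAI2 and ELF3 turned with the number of detected probes as a covariate (0.190 and -0.0745) and without both knockdown 2 and knockdown 6 (0.0557 and -0.0162). The cause of these moves was not tested. The number of detected genes was 19 with detection p under 0.01 on at least 6 arrays, 21 with all 12 arrays and 26 with at least 1.

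With each probe's group mean subtracted, the deviations of same-numbered knockdown and control arrays had correlations between -0.11 and 0.19. The numbers were therefore not taken to pair the samples. With the replicate block, 0 member probes were called and MAL2 had an adjusted p of 0.147, SPINT2 one of 0.153 and PRRX1 one of 0.0412. Dim probes such as those of MAL2, SNAI2 and CLDN4 lie near the background, which limits their fold changes.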
